A study of Brassica napus with 6 samples.

Results

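In developing seeds of oilseed rape (Brassica napus), 100 genes were selected for a higher read count under drought than in control seeds on each of 3 sampling days. The 100 members were chosen by their drought differences alone. Counts were divided by a median-of-ratios size factor, 10 was added, and the log2 was taken; the drought value minus the control value of the same day is called the difference on the log2 scale. A gene had to have a difference of at least 0.5 on each day (30, 40 and 50 after flowering) and a mean CPM, its count scaled to library size, of 5 to 500. Of 72611 genes in the table, 68938 carried a Bna ID and 26782 of those lay within the CPM range; these 26782 are called eligible genes. All 3 differences were at least 0.5 in 208 eligible genes (0.777%) and at most -0.5 in 140 (0.523%). The members are the 100 of the 208 whose lowest difference was largest, so every statement on their drought level describes how they were chosen and is not a test.

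The libraries were made from total RNA of seeds taken 30, 40 and 50 days after flowering. Plants stood under a rain shelter and were managed normally until flowering began, after which one set received drought stress and the other served as control. There was 1 library for each treatment and day, 6 in all, so no group had a replicate and the spread of a group could not be measured. The growth protocol speaks of several lines without tying any library to one of them, so line and treatment cannot be told apart. Plants or seeds pooled into a library are likewise not stated. Drought seeds gave both the smallest total count, 10314859 at day 40, and the largest, 16177156 at day 30, with size factors of 0.592 to 1.56.

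Between these ages a rapeseed embryo fills its cotyledons with oil and storage protein and then begins to dry. Late in this period seeds of many plants accumulate protective proteins, and the hormone abscisic acid, which also rises in plants short of water, is known to promote both reserve deposition and tolerance of drying. Brassica napus is an allotetraploid that carries an A subgenome from Brassica rapa and a C subgenome from Brassica oleracea, so most genes exist as near-identical copies. The files give an ID and a length for each gene and no name. Against the RefSeq gene table of B. napus, 2 members matched an entry by ID, BnaA06g13740D and BnaC05g15160D, both protein coding, and 0 members received a gene name. The members are therefore described by ID, subgenome, level and course, no role is given to any of them, and the identity of the tissue could not be checked with marker genes. In whole seeds, fewer cells of a type and less RNA per cell cannot be told apart.

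The members were higher in drought by a median of 0.89 at day 30 (range 0.64 to 3.11), 1.28 at day 40 (0.66 to 2.95) and 1.18 at day 50 (0.66 to 3.75) on the log2 scale. The median over all eligible genes was 0.00, -0.01 and -0.00 on those days, a level that the scaling by size factors tends to set. As a ratio of normalised counts, with 0.5 reads added to each count, the members' median fold was 2.21, 2.67 and 2.35 on the successive days. A ratio of at least 2 was found in 64 members at day 30, 76 at day 40 and 70 at day 50, and in 40 members on all 3 days. Of eligible genes, 1.05%, 5.64% and 8.35% reached that ratio on the respective days. A ratio of at least 4 was found in 13, 19 and 16 members, and 9 members were at least 8-fold higher on at least 1 day. Shares of eligible genes at these higher ratios, or at a ratio of at least 2 on all 3 days, were not counted. The exact 95% interval of each ratio, which covers counting error only, lay above 1 on all 3 days in all 100 members. The same counts chose the members, so these intervals describe the choice. They were not computed for all eligible genes.

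Fewest eligible genes met the limit at day 30. A difference of at least 0.5 was seen in 4.64% of eligible genes then, in 17.9% at day 40 and in 22.1% on the last day. The lowest of a member's 3 differences fell on day 30 in 55 members, on day 40 in 15 and on day 50 in 30. The highest fell on day 30 in 21, on day 40 in 41 and on day 50 in 38. The size was not the same on each day: within a member the highest and lowest differences lay a median of 0.69 apart (0.09 to 2.67), and in 31 members all 3 lay within 0.5 of each other. The difference increased from day to day in 30 members and decreased from day to day in 14.

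**Figure D1:**
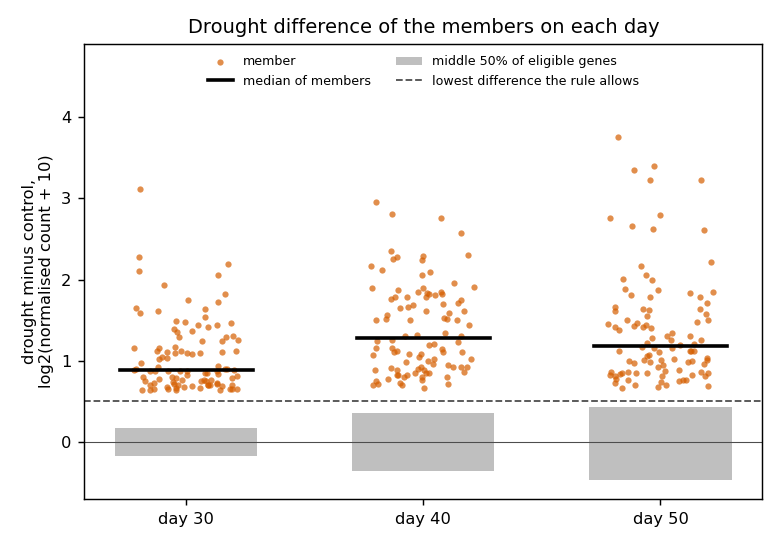
Drought minus control on the log2 scale for the 100 members and the eligible genes at days 30, 40 and 50 after flowering. The members' medians are 0.89, 1.28 and 1.18, the medians of eligible genes lie at or next to 0, and no member lies under 0.64 because the members were chosen by these values.

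The first member by rank, BnaA09g00870D on chromosome A09, had normalised counts of 26.1, 107 and 482 in the control libraries from first to last day, beside 140.0, 684 and 6627 under drought. Its ratio grew from 5.29 (95% counting interval 3.66 to 8.15) through 6.37 (5.20 to 7.91) to 13.7 (12.5 to 15.1). Both treatments rose with age and the ratio was highest at the last day. BnaCnng36750D, a C-subgenome gene with no chromosome in its ID, held a steady level with age. Its normalised counts were 80.8, 89.9 and 95.5 in control and 289, 317 and 305 in drought. The ratio stayed between 3.19 and 3.56 while neither treatment changed by as much as 1.5-fold from day 30 to day 50.

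BnaC08g12490D had 19.1, 62.9 and 101.7 normalised counts in control and 88.0, 198 and 453 in drought. BnaC05g42990D had 15.6, 41.3 and 76.0 in control and 88.0, 167 and 234 in drought, so that its ratio was highest at day 30 (5.49) and lowest at day 50 (3.07). In both genes the drought seeds of day 30 held more than the control seeds of day 40, and those of day 40 more than the controls of day 50. BnaA05g31900D rose from 26.1 through 1024 to 2844 in control and from 98.2 through 3772 to 7833 in drought. BnaA07g21050D began at 2.61 normalised counts in control, which were 3 reads, and reached 284 and 2281; drought seeds held 23.1, 1378 and 6119. Its ratio at day 30 was 7.71 with a counting interval of 2.80 to 45.0. It was the only member with 3 or fewer reads in any control library. The other 99 had more than 3 reads in all 3 controls.

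The 3 members of highest mean level followed the same steep course. BnaA06g09710D, at a mean of 372 CPM, went from 8.69 through 836 to 6670.0 normalised counts in control and from 22.5 through 3002 to 24479.9 in drought. BnaCnng57830D, at 339 CPM, went from 33.9 through 1159 to 6586 in control and from 84.8 through 5778 to 18424 in drought. BnaA01g21430D, at 243 CPM, went from 7.82 through 982 to 4007 and from 23.8 through 4856 to 13203. In each of these the ratio at day 30 was between 2.48 and 2.92 with control counts of 7.82 to 33.9, and the ratio at day 40 was between 3.59 and 4.99.

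At the edge of the list, BnaC04g22170D (rank 99) had differences of 0.64, 0.91 and 0.88 and BnaA03g35710D (rank 100) had 0.64, 1.30 and 0.99. The first gene outside, BnaC06g02060D, had 0.64, 0.65 and 2.19, and the next, BnaCnng23260D, had 0.63, 1.30 and 1.16. The values on both sides of the edge were alike, so the number of 100 is not a natural boundary.

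Several other members, picked after their values were seen, show how far the courses parted. BnaA08g10720D was 11.5-fold higher at day 30 (8.03 to 17.7) and 2.05-fold higher at day 50, its normalised counts being 25.2, 81.8 and 423 in control and rising from 295 through 609.5 to 868 in drought. BnaC04g46210D was 2.75-fold higher at day 30 and 11.6-fold at day 50, its control counts being 47.8, 27.9 and 61.6 and its drought counts 132, 55.7 and 721. BnaC05g15160D peaked in ratio at day 40, at 8.47, going from 18.2 through 89.0 to 399 in control and from 41.7 through 756 to 2569.8 in drought. In all 3 genes the drought value exceeded the control value on each day, as the choice of members required, and the size moved by 3-fold or more between days.

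**Figure D2:**
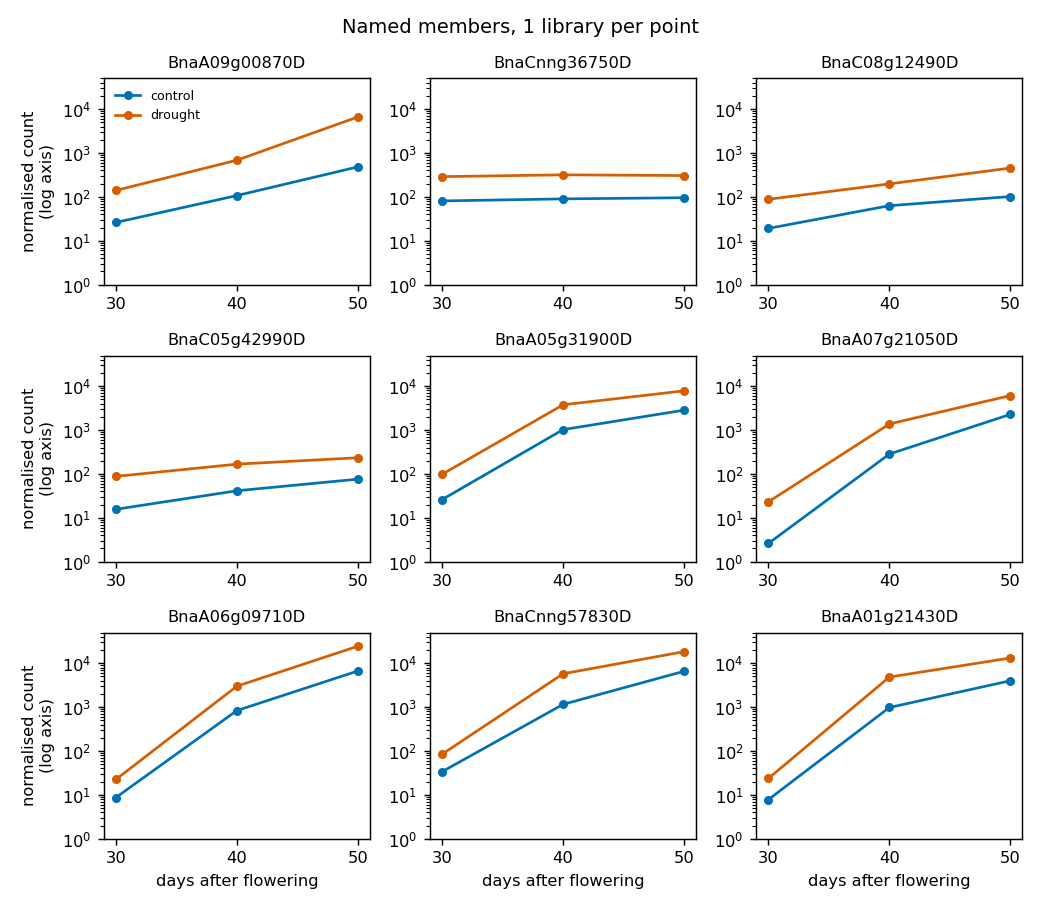
Normalised counts on a log axis at days 30, 40 and 50 after flowering in control and drought seeds for single members, 1 library per point. BnaA09g00870D climbs from 26.1 to 482 in control and from 140.0 to 6627 in drought, whereas BnaCnng36750D stays between 80.8 and 95.5 in control and between 289 and 317 in drought.

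With the treatments fitted together (edgeR quasi-likelihood test, Benjamini-Hochberg adjustment at 0.05 over 49832 genes, day and treatment as terms), 0 members were called higher in drought, beside 0.00602% of all genes tested. At an unadjusted p under 0.05 in the same edgeR test, all 100 members were higher. The share of all genes at that limit was not counted. DESeq2 called 50 members (0.423% of all genes) and limma voom 25 (0.235%). The fit has 2 residual degrees of freedom over these 6 libraries. They measure how unlike the drought difference is from day to day, not the spread of replicates. The members were also chosen on this contrast, so these counts describe the list and support nothing.

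The age of the seed was not used to choose the members, and most of them rose with it. Over both treatments together, 67 members were called higher at day 50 than at day 30 by edgeR, beside 10.5% of all genes tested and 12.2% of eligible genes. Another 6 were called lower, beside 11.3% of all genes tested and 11.5% of eligible genes. The fitted log2 change from day 30 to day 50 had a median of 1.88 over the members (-2.28 to 9.90), 0.05 over eligible genes and 1.39 over the other 108 genes that met the 0.5 limit on all days. It was above 0 in 87 members and below 0 in 13. Among the 67 called higher it ran from 1.10 to 9.90 with a median of 2.83. The libraries that chose the members also enter these tests, whose residual spread is again that of the drought difference between days. How far the choice of members affects their residual spread and p-values was not tested.

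The rise was seen in each treatment on its own. In control seeds the members' median ratio of day 50 to day 30 was 3.38, and 84 members were higher at day 50; the median over eligible genes was 1.01. In drought seeds the median ratio was 3.82, with 87 members higher, and the eligible median was 1.02. A ratio of at least 4 was reached by 47 members in control seeds (5.07% of eligible genes) and by 48 in drought seeds (6.49%). In 73 members of the control seeds and 72 of the drought seeds the level was higher on each later day. How many eligible genes were higher on each later day was not counted. The share of all reads held by the members went from 0.110% through 0.169% to 0.418% in control and from 0.251% through 0.391% to 1.13% in drought. Their median normalised count went from 42.1 through 89.4 to 168 in control and from 99.5 through 257 to 451 in drought. That of eligible genes lay between 179 and 186 in all 6 libraries. The size factors bring typical genes to a like level in every library, so the steady medians of eligible genes follow largely from the scaling. The 3 most abundant members held 19.4% to 31.5% of the members' reads in a library.

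Part of the rise fell in each interval. At day 40 against day 30, edgeR called 38 members higher (5.88% of eligible genes) and 4 lower (2.85%), BnaA09g03220D, BnaC02g20340D, BnaA01g04110D and BnaA03g00260D. Leaving out the control library of day 30 or that of day 40, or the drought library of day 30 or that of day 40, lowered this count of higher members. The count over eligible genes was lower too. The members' median fitted log2 change was then 1.05, 1.03, 0.98 and 0.98, beside 1.01 with all libraries. At day 50 against day 40 edgeR called 20 higher (1.16%) and 0 lower (1.27%). At an unadjusted p under 0.05 in that test, 2 members were lower, and the share of eligible genes at that limit was not counted. That count of 20 was lower without the control or the drought library of day 40, or without the drought library of day 50, and so was the count over eligible genes. With 1 library of day 40 left, the members' median fitted log2 change was 0.98 and 1.11, beside 1.17 with all libraries. Without the drought library of day 50 it was 1.07. For day 50 against day 30, 52 to 66 members were called higher with any 1 library left out, and 52 to 63 of them were among the 67.

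**Figure D3:**
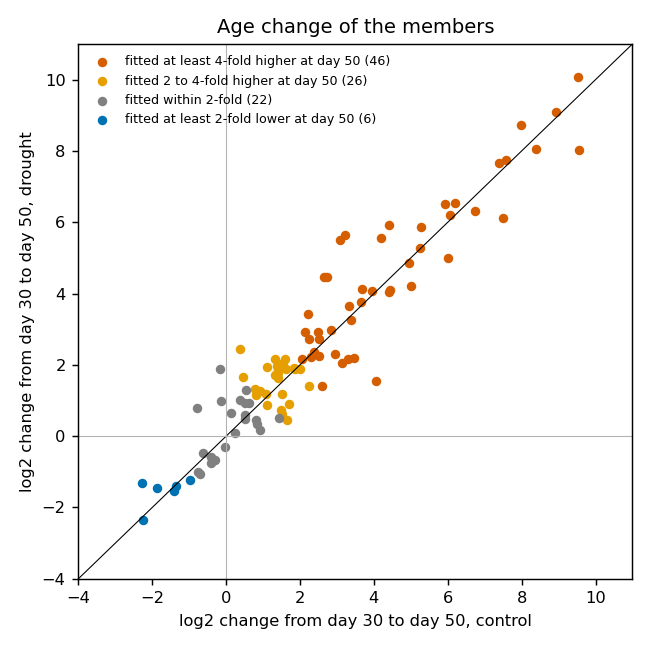
Log2 ratio of day 50 to day 30 of the members in control and in drought seeds. The members' medians are 1.76 in control and 1.93 in drought, and a tail of members lies below 0.

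By the fitted change from day 30 to day 50, 46 members were at least 4-fold higher (5.63% of eligible genes), 26 were 2-fold to 4-fold higher (8.45%), 22 stayed within 2-fold (71.9%) and 6 were at least 2-fold lower (14.0%). All 46 of the steepest class and 21 of the next were called higher by edgeR. In the steepest class the median normalised count was 19.1, 88.1 and 369 in control and 44.0, 315 and 988 in drought. Eligible genes with the same age course were themselves higher in drought at the later days, with median differences of 0.01, 0.91 and 0.69 at days 30, 40 and 50. The 46 members stood at 0.89, 1.61 and 1.43. Among eligible genes, 6.10% of those at least 4-fold higher at day 50 met the limit of 0.5 on all 3 days, beside 2.21% of those 2-fold to 4-fold higher, 0.301% of those within 2-fold and 0.214% of those at least 2-fold lower. The same libraries enter both the age change and the drought difference, so these shares are a description.

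**Figure D4:**
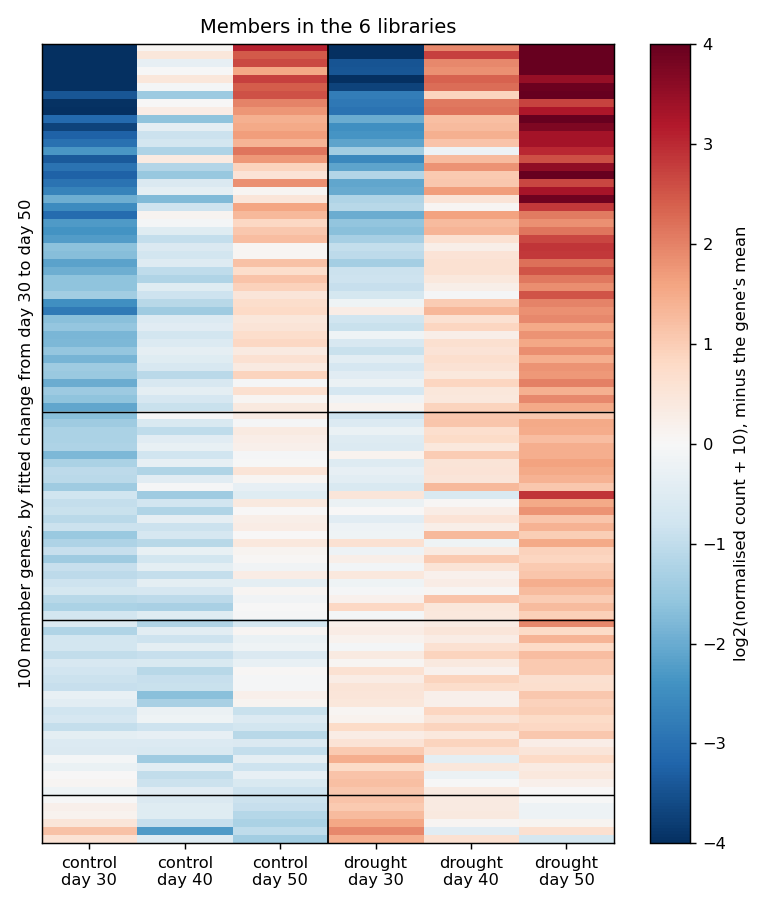
Level of each of the 100 members in the 6 libraries on the log2 scale relative to the gene's own mean, with colours ending at 4 in either direction and horizontal lines between the age classes. The 46 members at least 4-fold higher at day 50 run from low at day 30 to high at day 50 in both treatments, and the 22 members within 2-fold change less from day 30 to day 50, with BnaA09g03220D among those that dip at day 40.

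Among the members named by rank or level, BnaA06g09710D rose by 9.90 on the log2 scale from day 30 to day 50 (SE 0.71, edgeR adjusted p 4.76e-05), BnaA01g21430D by 9.12 (SE 0.65, adjusted p 4.76e-05) and BnaA07g21050D by 8.66 (SE 0.61, adjusted p 4.76e-05). These 3 had under 10 normalised counts in control seeds of day 30, as did 14 members altogether. BnaCnng57830D rose by 7.72 (SE 0.66, edgeR adjusted p 9.69e-05) and BnaA09g00870D by 4.99 (SE 0.50, adjusted p 0.000211). In each of these 5 genes the level was higher on each later day in both treatments.

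In the 22 members within 2-fold, the median normalised count was 109.9, 100.7 and 106 in control and 249, 196 and 269.8 in drought, and their median differences were 1.10, 1.10 and 1.08. Eligible genes within 2-fold had medians of 0.00, -0.02 and 0.02. Single members of this class moved more between days than its medians: their highest and lowest differences lay a median of 0.60 apart (0.14 to 1.87), and 10 of the 22 had all 3 within 0.5. BnaC08g02620D, picked after its values were seen, had 34.8, 18.9 and 30.8 in control and 65.5, 72.6 and 241 in drought, with differences of 0.75, 1.52 and 2.62. BnaA09g03220D dipped at day 40 in both treatments, with control counts of 193, 69.2 and 155 beside 579.8, 154 and 362 under drought. BnaCnng36750D, steadier than these, belongs here, with a fitted age change of 0.19 (SE 0.29, edgeR adjusted p 0.696). So does BnaA09g50920D, whose control counts were 208, 199.5 and 156 and drought counts 657, 485 and 437, with a fitted change of -0.47 (SE 0.30, edgeR adjusted p 0.298).

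The 6 members that fell with age were BnaC02g20340D, BnaA03g38740D, BnaC03g42890D, BnaA03g00260D, BnaC01g13470D and BnaA05g07580D. BnaA05g07580D fell by 2.28 on the log2 scale (SE 0.34, edgeR adjusted p 0.00145), from 143 through 62.0 to 29.8 in control and from 274 through 147 to 53.5 in drought. BnaC02g20340D fell from 368 through 132 to 100.7 in control and from 769.8 through 272 to 278 in drought, a fitted change of -1.63 (SE 0.30, edgeR adjusted p 0.00482). BnaA03g00260D had 624, 47.6 and 128 in control and 1043, 192 and 421 in drought, so that its lowest level in each treatment was at day 40. Drought seeds held more than control seeds of the same day in all 6, as the choice of members required. Eligible genes at least 2-fold lower at day 50, most of them not chosen by that rule, had median differences of -0.04, -0.40 and -0.72. Only 3 of these 6 were called lower when either the control or the drought library of day 30 was left out.

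Drought seeds of a given day were also set beside control seeds sampled 10 days later. At day 40, 70 members were at or above the control level of day 50, where 48.9% of eligible genes were. At day 30, 61 members were at or above the control level of day 40, where 50.9% of eligible genes were. The median difference on the log2 scale was 0.34 for drought day 30 less control day 40 (-4.88 to 4.19) and 0.31 for drought day 40 less control day 50 (-2.33 to 1.98). The count depended on the age course. Among the 46 steepest members, 13 met the later control level at day 30 (4.17% of eligible genes with that course) and 23 did so at day 40 (30.1%). Among the 26 members 2-fold to 4-fold higher, 20 and 20 did so. Among the 22 members within 2-fold, 22 and 21 did so, and among the 6 that fell, 6 and 6. The shares of eligible genes in these other classes were not computed, and a fall with age by itself lowers the later control level. These comparisons use the libraries that chose the members, so they show the size of the difference against the rise with age and nothing independent of it.

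The members were spread over the genome. By their IDs, 57 lay in the A subgenome, which is 0.436% of its 13088 eligible genes, and 43 in the C subgenome, which is 0.315% of 13647. A chromosome number was given for 92, and the largest numbers were 9 on A03 and 8 on A09, which are 0.482% and 0.433% of their eligible genes. The largest share was on A01, with 7 members or 0.604%, followed by A10 with 6 or 0.575%. There was 1 member each on C06 (BnaC06g37860D) and C07 (BnaC07g29330D). No member had another member within 5 places by ID number, beside 1.56% of eligible genes that had a member that near. Within 20 places there was 1 pair, BnaA03g38740D and BnaA03g38920D. The 380 eligible neighbours within 5 places of a member had median differences of -0.02, 0.04 and -0.00. Of those neighbours, 4 (1.05%) met the limit on all 3 days, beside 108 of 26682 non-members (0.405%). The order is that of the ID numbers, and no coordinates were used here.

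Members were shorter than other genes, with a median length of 1319 bases in the count table (294 to 3833), beside 1671 for eligible genes and 1687 for eligible genes of like mean CPM. They were shorter in each age class: 1298.5 beside 1467 in the steepest, 1485 beside 1738 in the next, 1255.5 beside 1731 within 2-fold and 1208 beside 1472.5 among those that fell. By quartile of eligible length, from shortest to longest, there were 31, 42, 22 and 5 members. Length moved with the drought difference in all eligible genes at day 40, whose median was 0.30, 0.08, -0.06 and -0.27 from the shortest to the longest quartile. At day 30 the order was the reverse and smaller, from -0.07 to 0.07. With the median of eligible genes of like length subtracted, an adjustment chosen after seeing the data, 98 of the 100 members kept all 3 differences at 0.5 or more, and the members' medians were 0.92, 1.23 and 1.20. The part of length in the choice of members beyond this was not tested.

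Some members came in pairs of equal length. There were 10 such pairs, and 6 of them joined an A-subgenome ID with a C-subgenome ID, as did 49.5% of all possible pairs of members. How often eligible genes share a length was not counted. BnaA07g33310D had 1016, 385 and 1461 normalised counts in control and 1765, 1462 and 2675 in drought, and BnaC06g37860D, also 1140 bases long, had 1243, 673 and 1782 in control and 2279, 1918 and 3186 in drought. Both had their lowest control level at day 40. BnaA06g27710D went from 5.21 through 33.3 to 344 in control and from 23.1 through 294 to 2148 in drought, and BnaC07g29330D, of the same 1104 bases, went from 13.0 through 16.2 to 114 and from 28.3 through 117 to 1299. Another such pair, BnaA10g09270D and BnaC09g31460D at 1824 bases, differed more in level: at day 30 the control library held 956 and 262 and the drought library 2488 and 955. Others ran apart. BnaA03g14420D had 219.8, 109.7 and 130 in control and 482, 203 and 238 in drought, whereas BnaC03g18690D, also 978 bases long, rose from 4.34 through 218 to 867 in control and from 20.5 through 962 to 1462 in drought. BnaA05g08020D rose from 9.56 to 385 in control and BnaC04g03030D, both of 1659 bases, from 820.1 to 2319.6. Equal length does not show that 2 genes are copies, and where they are, reads may have been counted to either, so such members may not be separate observations.

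In the deposited values per library, read here as FPKM and made from the same reads, 99 members were higher in drought on all 3 days, as were 14.9% of eligible genes. The median difference in log2(FPKM + 0.5) was 1.12, 1.24 and 1.13 for the members and 0.03, -0.09 and -0.01 for eligible genes. The exception was BnaC03g13580D at day 30, listed at an FPKM of 22.8 in control and 0.665 in drought although its read counts were 6 and 23. At days 40 and 50 its counts were 67 and 117 in control and 98 and 238 in drought.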

How the data were processed

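Seed RNA of Brassica napus was sequenced as paired 100-base reads, per the labels. The authors deposited a table of raw read counts per gene with gene length, and 1 file of normalised values per library, whose header gives no unit; these deposited values were read as FPKM because the submitters' notes name Cufflinks, and in some members they depart from count per length. Cufflinks is named in the submitters' processing notes without a version; the aligner, genome build, counting tool, strand setting and treatment of reads that match several copies were not given in the sources used here.

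Counts were scaled with median-of-ratios size factors and members taken as the report states. Ratios use a prior of 0.5 reads. Intervals are exact (Clopper-Pearson, 95%) on the 2 counts of a day and cover counting error only. The model of day and treatment used edgeR 4.0.16 (quasi-likelihood, TMM, filterByExpr), with DESeq2 1.42.0 and limma 3.58.1 as alternatives, in R 4.3.3; age changes average both treatments. The steps were tested on simulated data. FPKM values were compared as log2(FPKM + 0.5). Other scalings, offsets, filters and each library left out were tried.

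Named genes are ranks 1 to 6, 2 members inside and 2 genes outside the edge, and the 3 members of highest CPM; a planned group of members close by ID did not exist. Others were named after their values were seen. The members and lists were chosen with earlier results of these data known.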

Additional observations from a re-analysis of the deposited data

How the results depend on the processing

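Each choice was changed alone. The count of members called higher in drought by the additive model, 0 with edgeR, was 50 with DESeq2, 25 with limma voom and 55 with no filter on low counts. It was 6 without both libraries of day 30, 4 without both of day 50, 0 without both of day 40, and 0 to 27 with 1 library left out. The count over all genes tested moved too. It was 3 with edgeR, 211 with DESeq2, 117 with limma voom and 365 with no filter. Without both libraries of day 30, 50 or 40 it was 115, 21 and 0, and with 1 library left out 3 to 400. The cause was not tested. Members called higher at day 50 than at day 30 (67) numbered 66 to 70 with other tools, scalings or no filter and 52 to 66 with 1 library left out; those called lower (6) numbered 3 to 5 with 1 left out. For day 40 against day 30 (38 higher) the range with 1 library left out was 22 to 48. For day 50 against day 40 (20 higher) it was 2 to 30, with 35 under DESeq2 and 42 with no filter. With 1 library left out, its treatment and day are fitted from the other libraries and 1 residual degree of freedom remains.

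All 3 differences stayed at 0.5 or more in 100 members with an offset of 1, 79 with an offset of 30, 100 with TMM, 71 with column totals and 96 in FPKM, and stayed above 0 in all 100 under these offsets and scalings of the counts. Column totals moved the median of eligible genes to -0.45 at day 40 and the members' median there to 0.84. Choosing the list anew shared 68 members with an offset of 1, 77 with 30, 98 with TMM, 67 with column totals and 50 with a range of 1 to 1000 CPM. Within 20 places by ID, 2 members had another member near. No drought difference of a gene named by the rule changed sign. The model with day as a term already sets drought against control within each day, and no block by replicate number could be fitted because the labels carry none. Counting error limits ratios of members with few reads: 14 members had under 10 normalised counts in control seeds of day 30.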
